A study of Mus musculus with 18 samples.

Results

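The expression of 8 genes that control extracellular pyrophosphate, phosphate and mineral deposition was followed in cultured mouse mammary fibroblasts. These genes were Ank, Enpp1, Alpl, Nt5e, Spp1, Mgp, Slc20a1 and Slc20a2, and they were taken from the 55486 genes of the count table by symbol. Ank had been picked because its level was lower in CD26+ fibroblasts in tumour medium than in control medium, so that comparison is given for all 8 genes as a description without a test. The same holds for every other comparison of Ank that uses CD26+ libraries to set cell types or effects against each other. All 8 genes passed the filter on low counts, with the lowest count of any member in any library being 40, for Alpl.

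Pyrophosphate is a small ion that coats forming calcium phosphate crystals and stops them from growing. Cells supply it by exporting ATP and pyrophosphate, a step that the membrane protein ANK promotes, and by cleaving extracellular ATP into AMP and pyrophosphate with the ectoenzyme ENPP1. Tissue-nonspecific alkaline phosphatase, encoded by Alpl, degrades pyrophosphate to phosphate and thereby permits mineral to form, while CD73, encoded by Nt5e, turns the AMP into adenosine. Phosphate enters cells through the sodium-coupled carriers PiT-1 (Slc20a1) and PiT-2 (Slc20a2), and the secreted proteins osteopontin (Spp1) and matrix Gla protein (Mgp) restrain crystal growth in the matrix.

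The cells were primary normal fibroblasts (NFs) of the mammary gland, sorted as CD26- or CD26+ and cultured over 7 days with conditioned medium, which was control medium or that of tumour cells (CM). The labels give the FVB/n genotype for all groups, and the study's methods describe cells pooled from adult females on that background. The 18 libraries comprised 3 controls (replicates 1 to 3) and 6 in tumour CM (replicates 4 to 9) for CD26- NFs, and 3 controls (replicates 10 to 12) and 6 in tumour CM (replicates 13 to 18) for CD26+ NFs. The CM came from 6 lines of WEPtn tumours, which model invasive lobular carcinoma of the breast through a mammary Cre, namely 13-MCB-17, 10-SJK-221, 18-MCB-12, 13-MCB-44, 13-MCB-90 and 13-MCB-138, in the order of the replicates. Each line gave medium to 1 library of each cell type. The labels do not say whether the libraries of a group came from separate cultures or sorts, so p-values measure the spread between these libraries.

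Library totals ranged from 9725723 to 14585349 counts. All 8 fibroblast markers were detected in every group, and 7 of them were higher in CD26+ NFs in both media. Their summed level was 14899 to 16642 CPM (counts scaled to library size) in CD26- NFs and 60193 to 77001 CPM in CD26+ NFs in control medium, and 8056 to 19798 CPM and 27313 to 50319 CPM in tumour CM. Col1a1, Col1a2 and Col3a1 made up most of these sums. By medium, 4 of the 8 were higher and 1 lower in tumour CM in CD26- NFs, beside 15.2% of all genes called. In CD26+ NFs 3 were higher and 3 lower, beside 28.6%. There Dcn averaged 390 CPM in control medium and 3566 CPM in tumour CM. The 5 pericyte and smooth muscle markers summed to 187 to 203 CPM in CD26- NFs and 44.3 to 65.0 CPM in CD26+ NFs in control medium, and to 80.5 to 186 CPM and 38.0 to 68.5 CPM in tumour CM, with 4 and 3 of them lower in CD26+ NFs. By medium, 1 of these 5 was higher and 2 were lower in tumour CM in CD26- NFs, and 0 were called in CD26+ NFs. All 3 tested adipocyte markers of 5 were higher in CD26+ NFs in both media, with sums of at most 89.1 CPM in any library. The leukocyte markers summed to at most 29.7 CPM and the endothelial markers to at most 8.85 CPM. The part of the fibroblast, pericyte and adipocyte sets in the results was not tested. Dpp4, which encodes CD26, had 0 to 2 counts per library in CD26- NFs and 0 to 1 counts in CD26+ NFs in control medium, so its transcript did not separate the cell types there. In tumour CM it had 1 to 11 counts in CD26- NFs and 8 to 104 counts in CD26+ NFs. By flow cytometry the study reports a rapid fall of CD26 in CD26+ NFs kept in culture. The part of that fall in these counts was not tested. The summed level of 10 mammary epithelial markers, mainly Krt8 and Krt18, was 4063 to 4471 CPM in CD26- NFs in control medium and 2483 to 4080 CPM in tumour CM. In CD26+ NFs it was 686 to 1204 CPM in control medium and 607 to 1458 CPM in tumour CM, and Elf5 was at 0 counts in all CD26+ control libraries. Of the 9 epithelial markers tested, 7 were lower in CD26+ NFs in both media, although the sort had removed EpCAM+ cells. Line 13-MCB-44 had the highest epithelial sum among the tumour CM libraries of both cell types. In such bulk libraries fewer cells of a type and less RNA per cell cannot be told apart.

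The 250 bases before the start site are shown for Ank, the member with the largest difference by medium in CD26+ NFs, for Alpl, the member with the largest differences by cell type and by tumour line, and for Spp1, the most abundant member. They were taken from RefSeq with the build GRCm38.p6 and read 5′ to 3′ on the strand of the gene. Capitals mark exact matches, on either strand, to the GC box GGGCGG, the Runx core TGTGGT, the TATA box TATAAA or the cAMP response element core TGACG.
Ank, chr15:27466427-27466676, plus strand: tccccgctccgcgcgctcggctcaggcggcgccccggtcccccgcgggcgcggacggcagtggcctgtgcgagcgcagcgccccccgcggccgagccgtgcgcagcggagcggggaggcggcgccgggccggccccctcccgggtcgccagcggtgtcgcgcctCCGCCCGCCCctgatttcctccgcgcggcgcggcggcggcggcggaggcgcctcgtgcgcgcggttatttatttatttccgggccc
Alpl, chr4:137796385-137796634, minus strand: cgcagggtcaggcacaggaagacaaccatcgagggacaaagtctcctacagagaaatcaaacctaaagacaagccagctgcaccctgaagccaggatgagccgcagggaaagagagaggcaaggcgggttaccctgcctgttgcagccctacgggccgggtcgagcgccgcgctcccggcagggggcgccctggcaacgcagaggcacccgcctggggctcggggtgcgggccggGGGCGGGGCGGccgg
Spp1, chr5:104434861-104435110, plus strand: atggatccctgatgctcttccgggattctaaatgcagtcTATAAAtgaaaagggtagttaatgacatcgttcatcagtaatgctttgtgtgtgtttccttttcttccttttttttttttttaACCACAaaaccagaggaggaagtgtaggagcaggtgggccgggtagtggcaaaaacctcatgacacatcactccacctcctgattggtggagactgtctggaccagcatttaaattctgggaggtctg

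The Ank and Alpl windows each held 2 overlapping GC boxes and had GC contents of 81.2% and 68.4%. By contrast, the Spp1 window had a GC content of 43.6% and held 1 TATA box and 1 Runx core. Among 32851 such windows of RefSeq mouse start sites, 32.7% held a GC box, 14% a Runx core, 12.4% a TATA box and 17.8% a response element core. Of the other members, Nt5e, Enpp1 and Slc20a1 had RefSeq entries in the table used. Nt5e had 4 GC boxes, and Enpp1 had 1 GC box, 1 Runx core and 1 response element core. Alpl, Slc20a1 and Spp1 each had a second start site, which for Alpl held a TATA box and a response element core but no GC box, and for Spp1 held 0 matches to the 4 motifs.

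Ank lies on chromosome 15 at 27466677 to 27594909 (GRCm38, plus strand). Its level was 203, 215 and 216 CPM in the 3 libraries of CD26- NFs in control medium. In CD26- NFs in tumour CM it ranged from 85.3 to 117 CPM with a median of 92.9 CPM. Every CM library was thus below every control library of these cells. Ank fell by 1.11 ± 0.16 (SE) on the log2 scale, which is 2.16-fold (FDR 0.000362, where FDR is throughout the p of edgeR's quasi-likelihood test after Benjamini-Hochberg adjustment over all 14273 tested genes). In CD26+ NFs Ank was at 465, 525 and 493 CPM in control medium and between 71.4 and 143 CPM in tumour CM, with a median of 81.1 CPM. These groups did not overlap either, and the fitted difference, which was the basis for choosing the gene, was -2.47 ± 0.16 on the log2 scale, or 5.55-fold lower. The CD26+ CM library of line 13-MCB-138 held the highest value, 143 CPM, whereas the other 5 were at most 83.4 CPM. The order of the group means was therefore CD26+ control (495 ± 29.7 CPM, SD, n = 3), CD26- control (212 ± 7.21, n = 3), CD26- CM (98.2 ± 12.7, n = 6) and CD26+ CM (89.1 ± 27.0, n = 6). The last pair of groups overlapped through the 13-MCB-138 library alone, and their fitted difference was -0.14 ± 0.14. Without both libraries of that line it was -0.34 ± 0.079, and with the mean epithelial marker level as a covariate it was -0.44 ± 0.27.

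**Figure D1:**
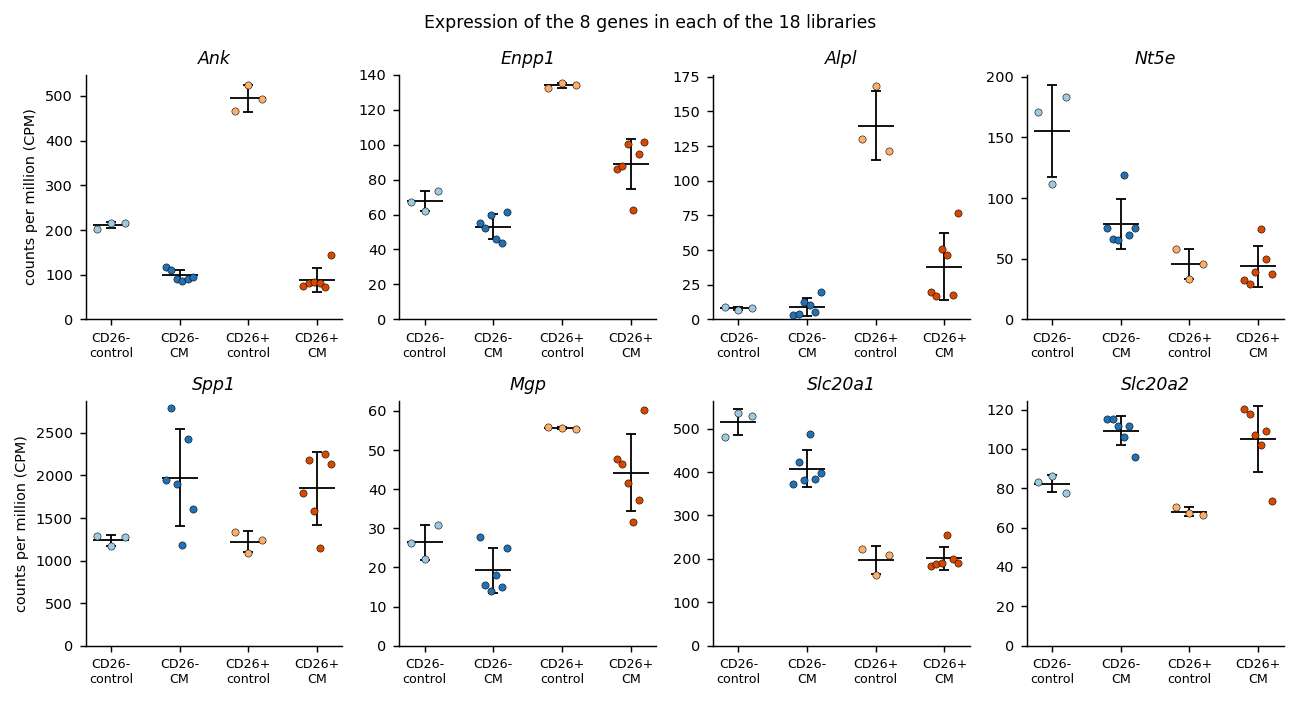
Scaled counts (CPM, vertical axis from 0, own scale per gene) of the 8 genes in each library of the 4 groups (points), with the group mean and SD (bars), n = 3 for control medium and n = 6 for tumour CM. Ank stands at 465 to 525 CPM in CD26+ NFs in control medium and at or below 143 CPM in all 12 tumour CM libraries.

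Enpp1, the ectoenzyme that makes pyrophosphate from ATP, is encoded on chromosome 10 at 24637914 to 24712159 (minus strand). It was at 66.9, 62.1 and 73.6 CPM in CD26- NFs in control medium and at 43.9 to 61.5 CPM, median 53.7 CPM, in tumour CM. The groups were separated by less than 1 CPM, and the difference of -0.35 ± 0.13 did not pass the test (FDR 0.0698). It passed in DESeq2 (FDR 0.0456), with the epithelial marker level as a covariate (-0.52 ± 0.13, FDR 0.0291), without replicate 9 (FDR 0.0426) or 16 (FDR 0.0206), and without both libraries of line 13-MCB-44 (FDR 0.0269) or 13-MCB-138 (FDR 0.0335). In CD26+ NFs Enpp1 was at 132, 135 and 134 CPM in control medium and at 62.9 to 102 CPM, median 91.2 CPM, in tumour CM, again without overlap, with a difference of -0.59 ± 0.12. CD26+ NFs had more Enpp1 than CD26- NFs in control medium, by 0.99 ± 0.15 on the log2 scale or 1.98-fold (FDR 2.18e-05). In tumour CM the cell types were also apart in every library, by 0.74 ± 0.10 or 1.67-fold (FDR 8.38e-06). With the epithelial covariate neither difference passed (0.49 ± 0.23, FDR 0.151, and 0.32 ± 0.18, FDR 0.218). The difference between the CM effects in the 2 cell types was -0.25 ± 0.18 (FDR 0.421, 95% interval -0.62 to 0.13).

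Alpl, the phosphatase that removes pyrophosphate, lies on chromosome 4 at 137741733 to 137796384 (minus strand). In CD26- NFs it was at 9.00, 6.75 and 7.92 CPM in control medium and at 3.20 to 19.6 CPM, median 7.81 CPM, in tumour CM. The control values lay inside the range of the CM values, and the difference of 0.21 ± 0.59 did not pass (FDR 0.849). Its sign turned when the CM library of line 13-MCB-138 was left out (-0.14). In CD26+ NFs Alpl was at 130, 168 and 121 CPM in control medium and at 16.7 to 76.9 CPM, median 33.0 CPM, in tumour CM. All 6 CM libraries were below all 3 control libraries, with a difference of -1.88 ± 0.44 or 3.69-fold.

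Between the cell types, Alpl was 17.7-fold higher in CD26+ NFs in control medium, at 4.15 ± 0.63 on the log2 scale (FDR 3.13e-05), with no overlap. In tumour CM it was 4.16-fold higher, at 2.06 ± 0.43 (FDR 0.000532), although the lowest CD26+ value of 16.7 CPM was under the highest CD26- value of 19.6 CPM. Within each of the 6 lines the CD26+ library was the higher of the pair. The test of the difference in CM effect gave -2.09 ± 0.75 and did not pass (FDR 0.0885). With line as a block, which compares the libraries that received the same CM, it was -2.08 ± 0.18 and passed (FDR 0.000131). It also passed without the CD26+ CM library of line 13-MCB-138 (-2.43 ± 0.67, FDR 0.0206). The sum of 8 osteoblast and chondrocyte markers, given here because alkaline phosphatase is also an osteoblast gene, was 90.7 to 108 CPM in CD26+ NFs in control medium, 25.1 to 82.2 CPM in CD26+ NFs in tumour CM and at most 25.6 CPM in CD26- NFs. Most of that sum was Sp7. Of the 4 markers tested, 2 were higher and 1 was lower in CD26+ NFs in control medium, beside 50.3% of all genes called. Col10a1 went the other way from the sum, averaging 5.26 CPM in CD26- NFs and 2.34 CPM in CD26+ NFs there. Bglap2 was at 0 to 1 counts and Bglap and Dmp1 at 0 to 2 counts in every library, and the part of these markers in the Alpl result was not tested.

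Nt5e, whose product makes adenosine from AMP, lies on chromosome 9 at 88327197 to 88372092 (plus strand). It was at 171, 112 and 183 CPM in CD26- NFs in control medium and at 65.7 to 119 CPM, median 72.4 CPM, in tumour CM. The groups met only through the CM library of line 13-MCB-44, which held 119 CPM while the other 5 were at most 75.2 CPM. Nt5e fell by 0.98 ± 0.25 on the log2 scale or 1.98-fold (FDR 0.0146), a call that was lost without control replicate 1 (FDR 0.0704) or replicate 3 (FDR 0.101). In CD26+ NFs it was at 58.0, 33.4 and 45.9 CPM in control medium and at 28.8 to 74.8 CPM in tumour CM, with overlapping groups and a difference of -0.064 ± 0.27. The difference between the CM effects was 0.92 ± 0.37 (FDR 0.132), and it passed with line as a block (0.89 ± 0.24, FDR 0.0235).

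Nt5e was lower in CD26+ than in CD26- NFs, by 1.76 ± 0.31 in control medium (3.39-fold, FDR 0.000137) and by 0.84 ± 0.22 in tumour CM (1.79-fold, FDR 0.00305). The epithelial marker sum moved in the same direction. With the mean log2 CPM of the epithelial markers as a covariate the differences were -0.21 ± 0.29 (FDR 0.670) in control medium and, with the sign turned, 0.43 ± 0.23 (FDR 0.190) in tumour CM, and the difference by CM in CD26- NFs was -0.45 ± 0.16 (FDR 0.126). The marker level itself differed between the cell types, so in these libraries the marker level and the cell type can be separated only by the spread within groups.

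Spp1, which encodes osteopontin, lies on chromosome 5 at 104435118 to 104441050 (plus strand). Per kilobase of exon it was the most abundant member, with a mean level of 753 CPM per kilobase in CD26- NFs in control medium, where Slc20a1 was next with 92.3 and Alpl last with 1.96. It was at 1283, 1167 and 1274 CPM in CD26- NFs in control medium and at 1188 to 2791 CPM, median 1922 CPM, in tumour CM. In CD26+ NFs it was at 1333, 1087 and 1237 CPM or between 1142 and 2252 CPM, respectively. In both cell types 5 of the 6 CM libraries were above all controls, and the exception was line 13-MCB-44, which lay within the controls. The difference in CD26- NFs was 0.67 ± 0.23 or 1.59-fold and did not pass (FDR 0.0523). It passed without the CM library of line 13-MCB-44 (0.78 ± 0.20, FDR 0.0119), in DESeq2 (FDR 0.0222) and without filtering low counts (FDR 0.0420). The difference also passed without replicate 9 (FDR 0.0402), 16 (FDR 0.0289) or 18 (FDR 0.0467). The same held without both libraries of line 13-MCB-138 (FDR 0.0365) or of 13-MCB-44 (FDR 0.00296). With the epithelial covariate it was smaller and did not pass (0.38 ± 0.24, FDR 0.410). The fitted difference in CD26+ NFs was 0.60 ± 0.22. No difference between the cell types was detected, with -0.026 ± 0.25 in control medium (95% interval -0.56 to 0.51, FDR 0.942) and -0.096 ± 0.18 in tumour CM (-0.47 to 0.28, FDR 0.668). With the epithelial covariate the fitted differences lay outside these intervals but did not pass either (-0.80 ± 0.42, FDR 0.208, and -0.76 ± 0.34, FDR 0.121).

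Mgp, the vitamin K-dependent inhibitor of calcification, lies on chromosome 6 at 136872435 to 136875823 (minus strand). In CD26- NFs it was at 26.3, 22.0 and 30.9 CPM in control medium and at 13.9 to 27.8 CPM, median 16.8 CPM, in tumour CM, a difference of -0.47 ± 0.21 that did not pass (FDR 0.139) but did without both libraries of line 13-MCB-138 (-0.56 ± 0.19, FDR 0.0479). In CD26+ NFs the 3 control libraries were between 55.3 and 55.9 CPM, and the CM libraries ranged from 31.7 to 60.2 CPM (difference -0.33 ± 0.20). The groups overlapped by medium in both cell types. They did not overlap by cell type: Mgp was higher in CD26+ NFs by 1.07 ± 0.24 in control medium (FDR 0.00107) and by 1.20 ± 0.17 or 2.31-fold in tumour CM (FDR 1.04e-05). Both calls were lost with the epithelial covariate (0.78 ± 0.43, FDR 0.229, and 0.96 ± 0.35, FDR 0.0575).

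Slc20a1, the gene of the phosphate carrier PiT-1, lies on chromosome 2 at 129198764 to 129211616 (plus strand). It was at 480, 535 and 529 CPM in CD26- NFs in control medium and at 373 to 487 CPM, median 391 CPM, in tumour CM. Only the CM library of line 13-MCB-44 reached into the control range. Slc20a1 fell by 0.34 ± 0.11 or 1.26-fold (FDR 0.0460), a call close to the threshold that was lost when any 1 of 14 of the 18 libraries was left out and with the epithelial covariate (-0.15 ± 0.092, FDR 0.387). In CD26+ NFs it was at 224, 162 and 209 CPM in control medium and at 183 to 255 CPM in tumour CM, with a difference of 0.020 ± 0.11. CD26+ NFs had less Slc20a1 than CD26- NFs without overlap in either medium, by 1.38 ± 0.13 on the log2 scale in control medium (2.60-fold, FDR 2.48e-07) and by 1.02 ± 0.092 in tumour CM (2.03-fold, FDR 6.08e-08). The difference between the CM effects was 0.36 ± 0.16 (FDR 0.164), and it passed with line as a block (0.35 ± 0.11, FDR 0.0418).

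Slc20a2, the gene of the second carrier PiT-2, lies on chromosome 8 at 22476788 to 22569612 (plus strand) and went the other way. It was at 83.3, 86.2 and 77.7 CPM in CD26- NFs in control medium and at 95.8 to 115 CPM, median 112 CPM, in tumour CM, without overlap. Slc20a2 rose by 0.41 ± 0.11 or 1.33-fold (FDR 0.0178), and the call was lost without control replicate 1 (FDR 0.0605) or replicate 3 (FDR 0.106) and with the epithelial covariate (FDR 0.110). In CD26+ NFs it was at 70.5, 67.6 and 66.3 CPM in control medium and at 73.7 to 120 CPM, median 108 CPM, in tumour CM, again without overlap and with a difference of 0.62 ± 0.11. The lowest CM value, 73.7 CPM, came from line 13-MCB-138. Between the cell types the difference was -0.27 ± 0.12 in control medium (FDR 0.0760) and -0.057 ± 0.086 in tumour CM (FDR 0.593, 95% interval -0.24 to 0.12). The first of these passed when only the compared groups were fitted (-0.28 ± 0.055, FDR 0.00118) or when the CD26+ CM library of line 13-MCB-138 was left out (FDR 0.00582). The difference between the CM effects was 0.22 ± 0.15 (FDR 0.404), and it passed without that library (0.29 ± 0.091, FDR 0.0377) or without both libraries of the line (0.26 ± 0.080, FDR 0.0318).

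Slc20a1 and Slc20a2 share stretches of exon with antisense genes, and Spp1 shares one with Gm42793, a transcript of uncertain status on its own strand. These neighbours had 102 to 180 counts per library for Smim19, opposite Slc20a2, 10 to 48 for 9830144P21Rik and 23 to 46 for Gm4430, opposite Slc20a1, and 3 to 28 for Gm42793. The members themselves had at least 825, 2129 and 13257 counts, respectively. The shared stretches were 95 bases for Slc20a2, 452 and 280 bases for Slc20a1, and 309 of the 1648 exon bases of Spp1. How many reads the members lost in shared stretches cannot be read from these counts. The library kit kept strand, but the strand setting of the counting is not given in the sources used here.

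As a group, 1 of the 8 members was higher (Slc20a2) and 3 were lower (Ank, Nt5e and Slc20a1) in tumour CM in CD26- NFs, where 15.2% of all tested genes were called, 7.88% as higher and 7.28% as lower. The median difference of the members was -0.34, beside 0.0052 for all tested genes. Without control replicate 1 or replicate 3, 1 member passed in each case, and the share of all genes called in those fits is not given. With the epithelial covariate 2 members passed, beside 4.15% of all genes. In these cells 3 of the 8 members did not overlap between the media, beside 20.3% of all tested genes. In CD26+ NFs, where 28.6% of all genes were called (15.2% as higher and 13.4% as lower), the median difference of the members was -0.20, beside -0.0040 for all genes, and 4 of the 8 (Ank, Enpp1, Alpl and Slc20a2) did not overlap, beside 25.3% of all genes. Since Ank was chosen on this comparison, nothing is read from that count.

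By cell type, 3 of the 7 tested members were higher in CD26+ NFs (Enpp1, Alpl and Mgp) and 2 were lower (Nt5e and Slc20a1), in control medium and likewise in tumour CM. The shares of all genes called were 50.3% in control medium, with 25% higher and 25.4% lower, and 58.6% in tumour CM, with 29.3% higher and 29.3% lower, so that a call between the cell types was common. The cell types did not overlap for 6 of 7 members in control medium, beside 64.7% of all genes, and for 3 of 7 in tumour CM, beside 31.7%. Epithelial markers and cell type moved together, and with the epithelial covariate 2 of these calls remained in each medium (15.8% and 21.5% of all genes were called in that fit), those of Alpl (FDR 0.00798 in control medium and 0.0447 in tumour CM) and Slc20a1 (-0.84 ± 0.16 and -0.56 ± 0.13). For the difference between the CM effects, 0 of 7 members passed in edgeR and 0 in DESeq2, with 3 at an unadjusted p under 0.05, beside 7.53% of all genes called (4.53% as higher and 3.01% as lower). With line as a block 3 members passed (Alpl, Nt5e and Slc20a1), beside 17.6% of all genes. Few genes passed both the FDR and a log2 change beyond 2. These were 0 of 8 members for CM in CD26- NFs (0.904% of all genes), only Alpl by cell type in control medium (5.97%) and in tumour CM (4.16%), and 0 of 7 for the difference in CM effect (0.392%). For CM in CD26+ NFs, where the share was 2.01%, Ank was the member with a value beyond that limit.

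**Figure D2:**
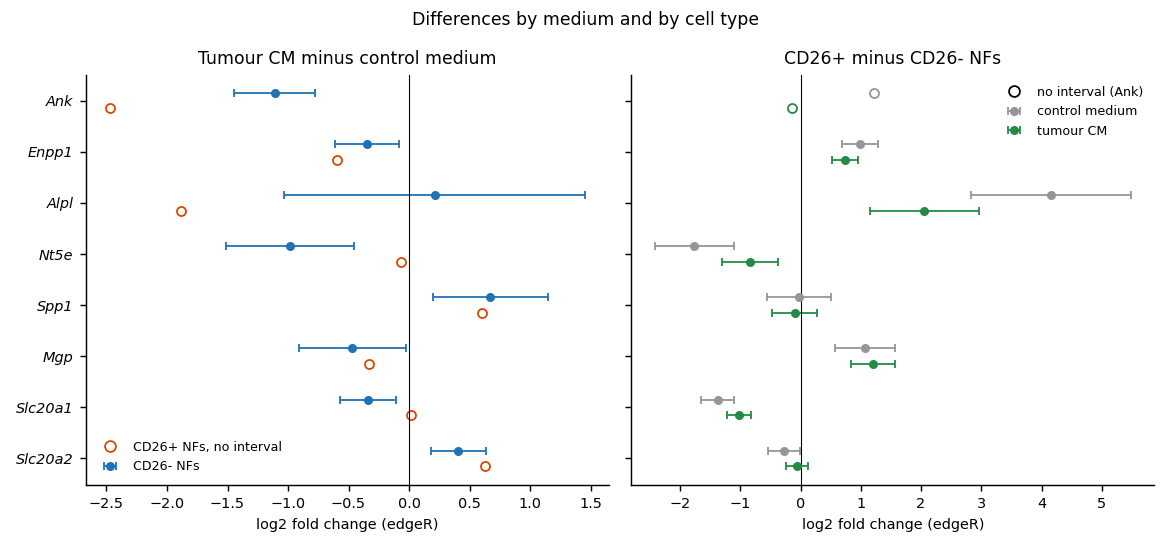
Log2 fold changes of the 8 genes (vertical axis) from the edgeR fit over 18 libraries, with 95% intervals (bars), for tumour CM minus control medium in each cell type (left) and for CD26+ minus CD26- NFs in each medium (right). Open circles are values of comparisons that chose the genes or share libraries with it for Ank, shown without an interval. Alpl has the largest difference by cell type (4.15 in control medium) and Ank the largest by medium (-2.47 in CD26+ NFs).

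The 6 tumour lines could be compared because each gave CM to a library of both cell types. An F test on the 5 line coefficients over the 12 CM libraries, with cell type in the model, asks whether both libraries of a line deviate together. It called 4 of the 8 members (Alpl, Nt5e, Spp1 and Slc20a1), beside 6.56% of the 13344 genes tested. The test was not part of how the members were chosen.

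For Alpl the F value was 89.3 (FDR 0.000876), and all 6 lines lay on the same side of the mean in both cell types. In CD26- NFs Alpl was at 3.20 CPM with CM of 13-MCB-17, 3.93 with 10-SJK-221, 12.9 with 18-MCB-12, 10.7 with 13-MCB-44, 4.97 with 13-MCB-90 and 19.6 with 13-MCB-138. In CD26+ NFs the values for the same lines were 19.6, 16.7, 50.7, 46.4, 17.9 and 76.9 CPM. Lines 18-MCB-12, 13-MCB-44 and 13-MCB-138 were thus the high ones in both cell types, and the mean over both cell types spanned 4.79-fold from the lowest to the highest line. The call held with the epithelial covariate (FDR 0.00175) and without both libraries of 13-MCB-44 (FDR 0.00191) or of 13-MCB-138 (FDR 0.000849).

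The other 3 calls were lost under several alternatives. Nt5e (FDR 0.0239) and Slc20a1 (FDR 0.0350) were highest, and Spp1 (FDR 0.0256) was lowest, with CM of 13-MCB-44 in both cell types. Without both libraries of that line the FDR was 0.590 for Nt5e, 0.816 for Slc20a1 and 0.297 for Spp1, and Alpl was the only member to pass. This was also the line with the highest epithelial marker sum, and with the epithelial covariate the FDR was 0.531, 0.221 and 0.156, respectively. Left out singly, either library of 13-MCB-44 (replicate 7 or 16) or of 18-MCB-12 (replicate 6 or 15) left 1 member called, and replicate 4, 8 or 13 left 2. The call of Spp1 was lost when replicate 4, 5, 6, 7, 8, 13, 15, 16 or 17 was left out, that of Slc20a1 in the same cases except replicate 5, and that of Nt5e when replicate 6, 7, 15 or 16 was left out.

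The test of Ank between lines did not pass (F 1.60, FDR 0.516). Leaving out the CD26- CM library of 13-MCB-138 (replicate 9) changed the call. That fit leaves this line with its CD26+ library alone, so it cannot show whether both libraries deviate together. The high value of Ank with CM of 13-MCB-138 in CD26+ NFs, 143 CPM, stood beside 94.3 CPM with the same CM in CD26- NFs, which was near the middle of that group. Enpp1 (FDR 0.124), Mgp (FDR 0.115) and Slc20a2 (FDR 0.0867) did not pass either. Slc20a2 nevertheless had all 6 lines on the same side in both cell types, with 13-MCB-138 lowest at 95.8 and 73.7 CPM, and DESeq2 called it (FDR 0.0402) as well as Mgp (FDR 0.0134). Without a filter on low counts 7 of the 8 members passed, all but Ank. The share of all genes called in that fit is not given, so the count is not set against all genes. Leaving out replicate 9 changed the call of Slc20a2, and leaving out replicate 17 that of Enpp1. Each of those fits also leaves a line with 1 library.

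**Figure D3:**
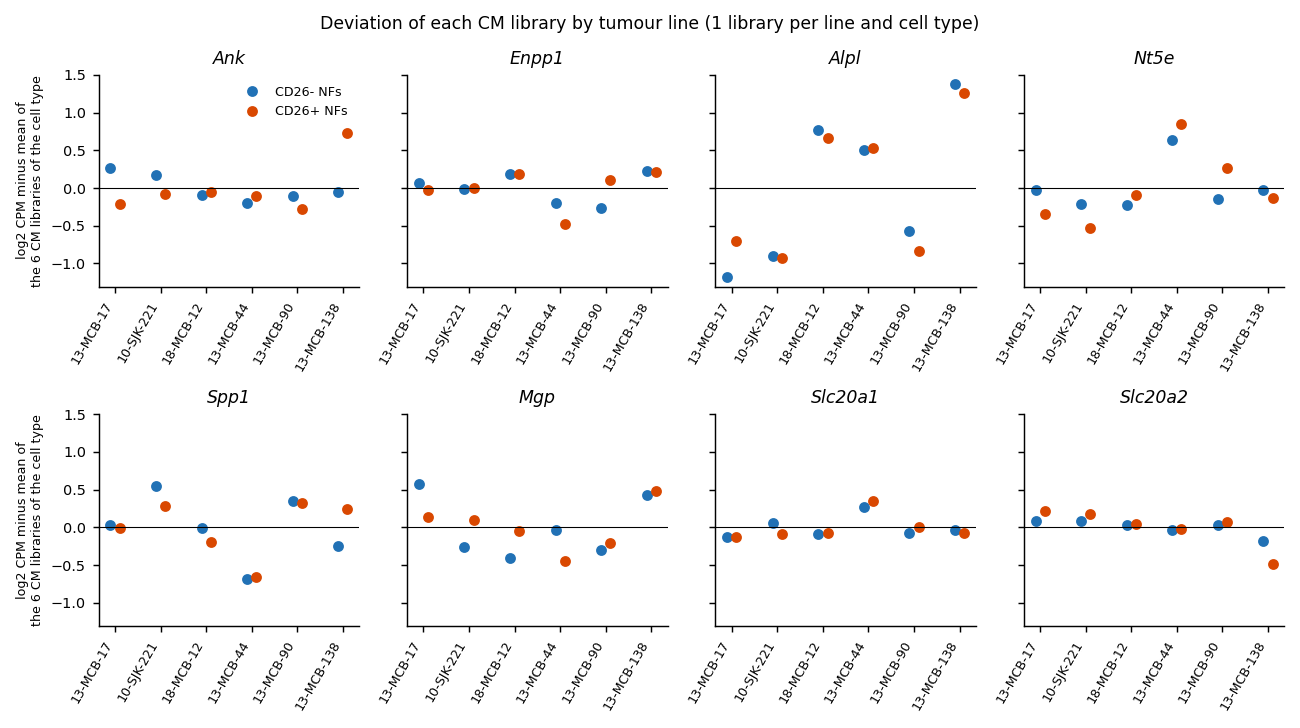
Log2 CPM of each tumour CM library minus the mean of the 6 CM libraries of its cell type (vertical axis), by tumour line (horizontal axis), for the 8 genes in CD26- NFs (blue) and CD26+ NFs (orange), 1 library per point. For Alpl both points of every line lie on the same side of 0, and line 13-MCB-44 is the highest for Nt5e and Slc20a1 and the lowest for Spp1.

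Another 55 genes of the same metabolism were listed by role, of which 34 were tested. In CD26- NFs 1 of the 34 rose in tumour CM and 5 fell, and in CD26+ NFs 4 rose and 9 fell, with medians of -0.14 and -0.077. Of all tested genes 15.2% and 28.6% were called in these comparisons. Abcc6, a liver transporter needed for ATP release, and Phospho1, a phosphatase of matrix vesicles, were not tested because their counts were at or near 0. Adora2b, the low-affinity adenosine receptor, was at 6.09 to 7.55 CPM in CD26- NFs in control medium and at 15.2 to 24.7 CPM in tumour CM. It was at 4.23 to 4.53 CPM and at 14.6 to 52.5 CPM in CD26+ NFs. Every CM library was above every control library, and Adora2b rose by 1.67 ± 0.29 in CD26- NFs (3.19-fold, FDR 0.00142) and by 2.88 ± 0.31 in CD26+ NFs (7.38-fold, FDR 4.28e-06). Slc29a1, which carries adenosine across the membrane, fell by 0.61 ± 0.12 in CD26- NFs (FDR 0.00307) and by 0.61 ± 0.12 in CD26+ NFs (FDR 0.00121).

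Of the 10 tested osteogenic and chondrogenic regulators, 4 fell and 1 rose in tumour CM in CD26+ NFs, and 1 fell in CD26- NFs, beside 28.6% and 15.2% of all genes called. Runx2, the transcription factor that starts osteoblast differentiation, was at 112 to 135 CPM in CD26+ NFs in control medium and at 68.5 to 85.7 CPM in tumour CM. It fell there by 0.75 ± 0.065 (FDR 6.15e-07), and in CD26- NFs it fell by 0.25 ± 0.068 (FDR 0.0187), a call that was lost without control replicate 2 (FDR 0.0578) or 3 (FDR 0.0824). The effects differed by -0.50 ± 0.095 (FDR 0.00602), so that for Runx2 the larger fall in CD26+ NFs was itself tested. Dlx5, a homeobox gene of bone, had 13 to 22 counts per library in CD26+ NFs in control medium and 0 to 7 counts in tumour CM, a ratio of summed and scaled counts of 0.113 (exact 95% interval 0.0551 to 0.213). Ibsp, the gene of bone sialoprotein, had 5 to 12 counts in CD26- NFs in control medium and 0 to 3 in tumour CM (ratio 0.0945, 0.0282 to 0.251). In CD26+ NFs Ibsp had 11 to 15 and 0 to 2 counts (ratio 0.0522, 0.0136 to 0.144). These intervals cover counting error only, and both genes passed the edgeR test in the comparisons named (FDR at most 0.00264).

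Of the 4 osteopontin receptor genes, Itgav and Itgb3, the chains of the integrin αvβ3, rose in tumour CM in CD26+ NFs, by 0.46 ± 0.078 (FDR 0.000345) and 0.89 ± 0.19 (FDR 0.00191), beside 28.6% of all genes called. In CD26- NFs 0 of the 4 rose and Cd44, named here after its values were seen, fell by 0.34 ± 0.097 without overlap (FDR 0.0246), beside 15.2% of all genes called. In CD26+ NFs Itgav was at 404 to 439 CPM in control medium and at 501 to 640 CPM in tumour CM, whereas in CD26- NFs the groups overlapped at 427 to 471 CPM and 386 to 463 CPM. The CM effect on Itgav differed between the cell types by 0.57 ± 0.11 (FDR 0.00602). Itgav and Runx2 were the only 2 of the 34 genes called for that difference, beside 7.53% of all genes, and with line as a block 6 were, beside 17.6%.

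By cell type, CD26+ NFs had higher levels of 12 and lower levels of 9 of the 34 genes in control medium. In tumour CM these numbers were 15 and 10. Of all tested genes 50.3% and 58.6% were called, respectively. Runx2 (0.87 ± 0.078, FDR 1.43e-07), Enpp3 (1.34 ± 0.14, FDR 7.53e-07), an ectoenzyme related to ENPP1, and Sp7 (2.43 ± 0.35, FDR 1.64e-05), an osteoblast transcription factor, were higher in control medium. Lower in control medium were Entpd1, the ectonucleotidase CD39 (-2.47 ± 0.24, FDR 2.71e-07), Cd44, a receptor of osteopontin (-1.17 ± 0.12, FDR 3.65e-07), and Galnt3, a glycosyltransferase that protects the phosphate hormone FGF23 (-2.37 ± 0.25, FDR 7.29e-07). In tumour CM the leading genes were Enpp3 (0.98 ± 0.10, FDR 3.00e-07), the growth factor receptor gene Fgfr1 (0.64 ± 0.067, FDR 3.27e-07) and Itga9 (1.08 ± 0.14, FDR 2.73e-06) among the higher ones. Entpd1 (-2.18 ± 0.17, FDR 1.04e-08), Galnt3 (-2.14 ± 0.18, FDR 2.42e-08) and the homeobox gene Msx2 (-1.93 ± 0.19, FDR 1.87e-07) led the lower ones. With the epithelial covariate 9 genes were called in control medium and 10 in tumour CM in place of 21 and 25, while 15.8% and 21.5% of all genes were called in that fit, and Sp7 in control medium was no longer called (FDR 0.0700).

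**Figure D4:**
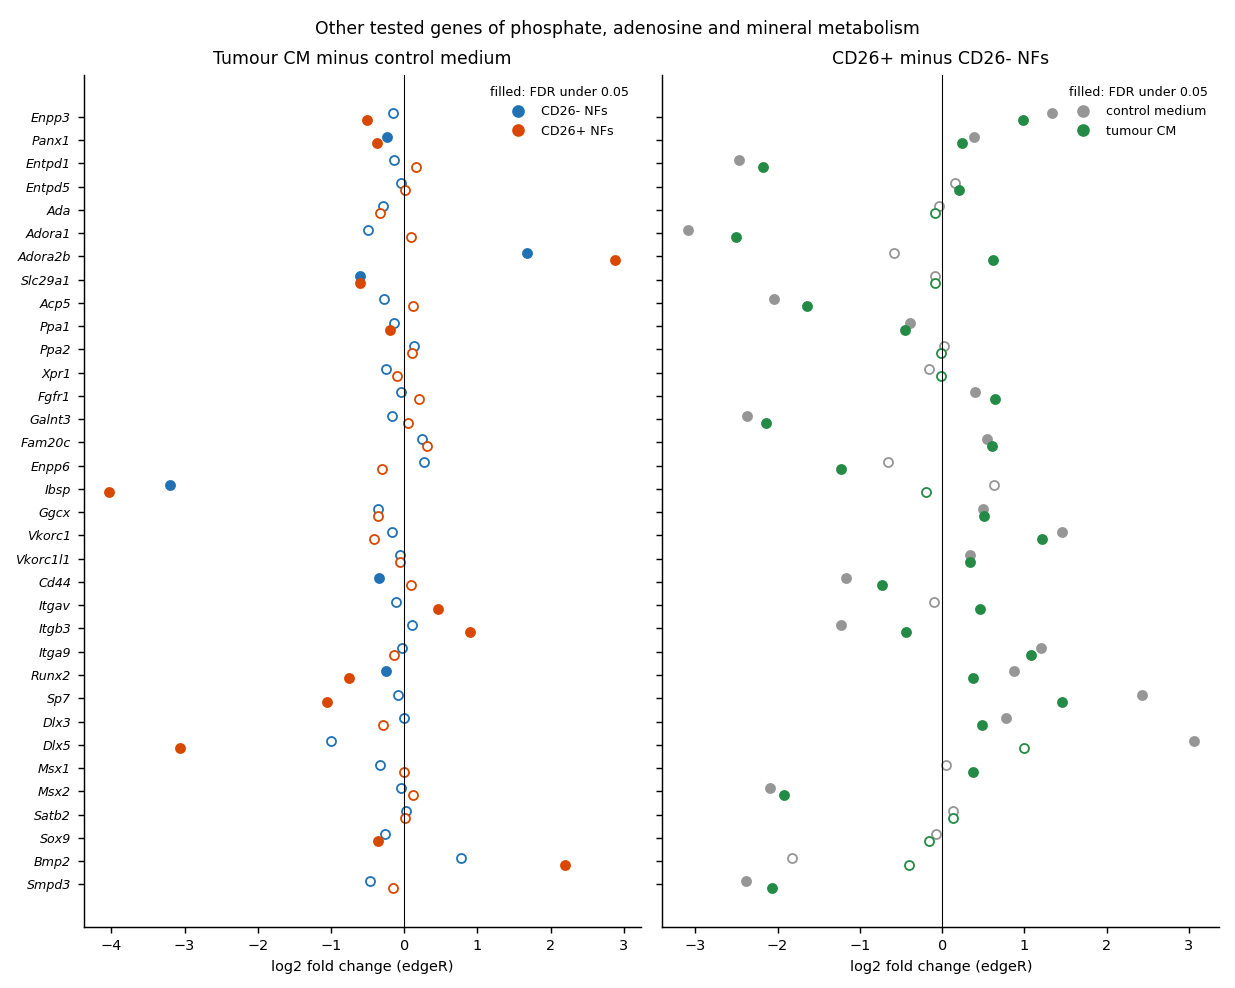
Log2 fold changes from the edgeR fit of the 34 tested genes of phosphate, adenosine and mineral metabolism other than the 8 members, for tumour CM minus control medium in each cell type (left) and for CD26+ minus CD26- NFs in each medium (right). Filled circles passed an FDR of 0.05. Adora2b stands at 1.67 and 2.88 on the left, and Entpd1 at -2.47 and -2.18 on the right.

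Of the 30 listed genes tested between tumour lines, 9 were called, beside 6.56% of all genes tested. With the epithelial covariate 4 were called, and the share of all genes in that fit is not given. Ggcx, which encodes the carboxylase that activates matrix Gla protein, had the smallest p (FDR 0.00361) and Vkorc1, which recycles the vitamin K it uses, the next (FDR 0.00811). With CM of 13-MCB-138 Ggcx was highest at 55.4 CPM in CD26- NFs and 79.4 CPM in CD26+ NFs, and with 13-MCB-90 it was lowest at 35.9 and 52.1 CPM. Vkorc1 was lowest with 10-SJK-221 in both cell types, at 6.46 and 16.7 CPM, and highest with 13-MCB-138 in CD26- NFs (12.7 CPM) and with 18-MCB-12 in CD26+ NFs (28.4 CPM). Lines 18-MCB-12, 13-MCB-44 and 13-MCB-138 were above the mean and the other 3 below it for both genes in both cell types, which is the same division of lines as for Alpl. Itgb3 (FDR 0.0136) was highest with 10-SJK-221 in both cell types, at 195 and 156 CPM.

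The genes whose log2 CPM followed each member most closely over the 18 libraries were found by Pearson's r among 10611 genes. Ank was followed by Epha3 (r = 0.934), Tiam2 (0.927) and Tmem164 (0.927), and the closest to Alpl was Maged1 (0.985). For the remaining members these were Baalc for Enpp1 (0.953), Tsg101 for Nt5e (0.965), Sox13 for Spp1 (0.886), Gtf2i for Mgp (0.965), Hspa4l for Slc20a1 (0.993) and Mmp10 for Slc20a2 (0.982). The libraries share 4 groups and the CM of 6 lines, so that these values describe likeness of pattern over groups and lines, and no p is given.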

How the data were processed

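Polyadenylated RNA of the 18 libraries was sequenced single-end from stranded libraries. The authors deposited raw counts per Ensembl gene, without normalization. The submitters' processing notes name HISAT2 2.1.0, HTSeq and GRCm38, and the counting options and annotation release are not given in the sources used here. Coordinates in the table equalled those of GENCODE M21 for all 8 members. One row without a gene name held 0 counts and was left out. Copied libraries were looked for within groups, and chi-square divided by its degrees of freedom was at least 3.10 in 36 pairs.

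Genes were filtered with filterByExpr (14273 kept), scaled by TMM and tested in R 4.3.3 with glmQLFit and glmQLFTest of edgeR 4.0.16, in 1 model of the 4 groups. Tumour lines were compared over the 12 CM libraries with cell type as a covariate. A call is an FDR under 0.05. The study's methods also ask for a log2 fold change beyond 2, which was run as an alternative, as was DESeq2 1.42.0. CPM are relative to TMM-scaled library sizes, and group values are mean ± SD. The procedure was tested on simulated counts drawn independently for each library. That test therefore does not cover the pairing of CM libraries by tumour line. Intervals of low counts are exact and cover counting error only.

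The members, lists and tests were chosen with earlier results of these data known. All members are named. Of the other listed genes, up to 3 higher and 3 lower with the smallest p were named per comparison if some group mean reached 1 CPM, and the 3 with the smallest p between lines. Likeness was computed over genes averaging 5 CPM or more. The shared tumour line pairs CM libraries: the deviations from group means of libraries of the same line correlated at 0.247 to 0.406 in 6 of 6 pairs, so a fit with line as a block is given where it changed a call. The library batch is not given in the labels. Leaving out both libraries of a line, and the epithelial covariate between lines, were added after seeing the data.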

Additional observations from a re-analysis of the deposited data

Results flagged for a closer look

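Among the 8 genes, 16 groups of 6 tumour CM libraries were examined for a single library far from the others, with a criterion that chance meets in about 1 in 20 groups, and 3 libraries met it. Ank stood at 143 CPM in the CD26+ CM library of line 13-MCB-138 (replicate 18), far above the other 5. Nt5e stood at 119 CPM in the CD26- CM library of line 13-MCB-44 (replicate 7). Slc20a1 stood at 255 CPM in the CD26+ CM library of the same line (replicate 16). Both libraries of line 13-MCB-44 had the highest epithelial marker sums of their groups, 4080 and 1458 CPM. The sum in replicate 18 was 753 CPM, inside the range of its group.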

How the results depend on the processing

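The lowest count of any member was 40. There were 3 control libraries per cell type, and the epithelial marker level differed between the cell types. Requiring a log2 change beyond 2 left 0 members and 1 listed gene for CM in CD26- NFs, 4 listed genes for CM in CD26+ NFs, 1 member (Alpl) and 8 listed genes by cell type in control medium, 1 and 4 in tumour CM, and 0 listed genes for the difference in CM effect. With the epithelial covariate 2 members passed for CM in CD26- NFs, 2 members and 9 listed genes by cell type in control medium, 2 and 10 in tumour CM, and 1 and 4 between lines. For the difference in CM effect, 5 listed genes passed in DESeq2, where 1588 genes were called in all, beside 1075 in edgeR. With line as a block 3 members and 6 listed genes passed, beside 17.6% of all genes. Without both libraries of 13-MCB-138, 2 members (Alpl and Slc20a2) and 7 listed genes passed, and the share of all genes is not given. The replicate block by line changed no other member's call. Between lines 7 members passed without a filter, and 1 member and 5 listed genes without 13-MCB-44. The shares of all genes called in these fits, and in those below that leave out 1 library, are not given. Their counts are therefore not set against all genes. Upper-quartile scaling moved the share of higher calls among all genes for the difference in CM effect from 60.1% to 48.0%, and for CM in CD26+ NFs from 53.1% to 44.6%.

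Leaving out 1 library at a time gave 1 to 6 members and 3 to 8 listed genes for CM in CD26- NFs, 0 to 2 members and 2 to 7 listed genes for the difference in CM effect, and 1 to 6 members and 4 to 12 listed genes between lines. The sign of small differences turned in these cases, given with the range over single libraries left out: Alpl for CM in CD26- NFs (-0.14 to 0.39, the lowest without replicate 9, and -0.14 without line 13-MCB-138), Spp1 by cell type in control medium (-0.093 to 0.062, and 0.0078 without replicate 1) and in tumour CM (-0.21 to 0.028, and 0.0027 without replicate 16), Slc20a2 in tumour CM (-0.11 to 0.023), and, for the difference in CM effect, Spp1 (-0.18 to 0.054, 0.022 without replicate 16 and 0.046 with the epithelial covariate) and Mgp (-0.0080 to 0.27). For CM in CD26+ NFs, given without a test, the sign turned for Nt5e (-0.30 to 0.14, and 0.19 with that covariate) and Slc20a1 (-0.12 to 0.11). With that covariate Nt5e turned by cell type in tumour CM (0.43). Apart from Nt5e none of these was called before, and the cause was not tested.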
